A study of Mus musculus with 8 samples.

Results

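Splicing factors and heterogeneous nuclear ribonucleoproteins (hnRNPs) were compared between the left ventricles of heterozygous knock-in mice and those of their wild-type littermates. The genes were chosen by symbol: every probe whose symbol in the deposited table starts with Hnrnp, Hnrp, Srsf, Sfrs, Sf3a, Sf3b or Prpf. This gave 87 probes of 48 genes, out of 25697 probes of 18120 symbols. They comprise 17 hnRNP genes, 13 genes filed under the older name of the serine/arginine-rich (SR) proteins, 8 subunits of splicing factor 3 and 10 pre-mRNA processing factors (PRPF). The 8 mice were 4 heterozygotes for a knock-in allele and 4 wild types. All were 12 months old, on a Swiss Agouti background, and no treatment is named for either group. RNA came from the left ventricle with the septum and was read on Illumina bead arrays, 1 per mouse. The genotype labels were not checked against the arrays.

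Splicing removes introns from a newly made transcript. The hnRNPs coat the transcript and often keep weak exons out, while SR proteins bind exon enhancers and bring the splicing machinery to them, so the balance of both kinds sets which exons are kept. Splicing factor 3 belongs to the U2 particle that marks the branch point, and the PRPF proteins assemble and remodel the catalytic core. In the heart, changes in splicing across development and disease alter proteins of the sarcomere and of calcium handling.

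Between 10094 and 11545 probes were detected per array (detection p under 0.01), and between 49 and 56 of the 87 member probes. The 7 ventricular cardiomyocyte markers on the array were each detected on at least 4 arrays, with summed deposited intensities of 67183 to 76910 in heterozygotes and 62657 to 77929 in wild types. The array of heterozygote 3 stood apart: its correlation with the remaining arrays averaged 0.950, where every other array averaged 0.971 to 0.977. It had the highest summed adipocyte markers (24646, others 824 to 10998) and lung and airway markers (11225, others 2.41 to 6853), and all 7 lung and airway genes were detected on its array, against at most 4 on any other. Its summed T cell and thymus markers (460, others 42.6 to 116), macrophage markers (2752, others 837 to 1648) and proliferation markers (141, others at most 54.5) were the highest as well, and its erythroid markers the lowest (9135, others 13984 to 24686). Wild type 1 also had lung and airway signal (6853, with 4 of the 7 genes detected), where the remaining mice had at most 607. The part that such tissue has in the values below was not tested. Values without heterozygote 3 are given beside the wider differences of the member probes only. RNA of the whole wall was measured, so fewer cells of a type and less RNA per cell cannot be told apart.

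No splicing factor or hnRNP passed the test between the genotypes. Of the 87 probes, 55 (35 genes) were detected on at least 4 of 8 arrays and entered the test. With limma, 0 of 55 reached an adjusted p under 0.05, beside 0 of all 10547 probes tested (0%), and the smallest adjusted p in either set was 0.947. An unadjusted p under 0.05 was found for 4 member probes (7.27%), beside 493 of all probes (4.67%). Prpf3 and Sf3b3 were the 2 higher in heterozygotes, where 2.04% of all probes were, and Hnrpa1 and Hnrpa2b1 the 2 lower, where 2.64% were. The share of all probes moved with the count when 1 mouse was left out. Without heterozygote 3 the count was 8 (14.5%), beside 7.77% of all probes. Without heterozygote 4, wild type 3 or wild type 4 it was 2 (3.64%), beside 3.10%, 2.83% and 3.35%. The genotypes did not overlap on 2 member probes (3.64%), against 2.66% of all probes. As a group the members did not lean to either side, with 28 higher and 27 lower in heterozygotes (50.9% higher), where 50.1% of all probes were higher. Their median log2 difference was 0.0074 (all probes 0.00062). The quartiles of the member differences were -0.20 and 0.10. With arrays scaled by their medians 39 of 55 members (70.9%) were higher, beside 74.4% of all probes, because that scaling moved the median of all probes to 0.14.

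**Figure D1:**
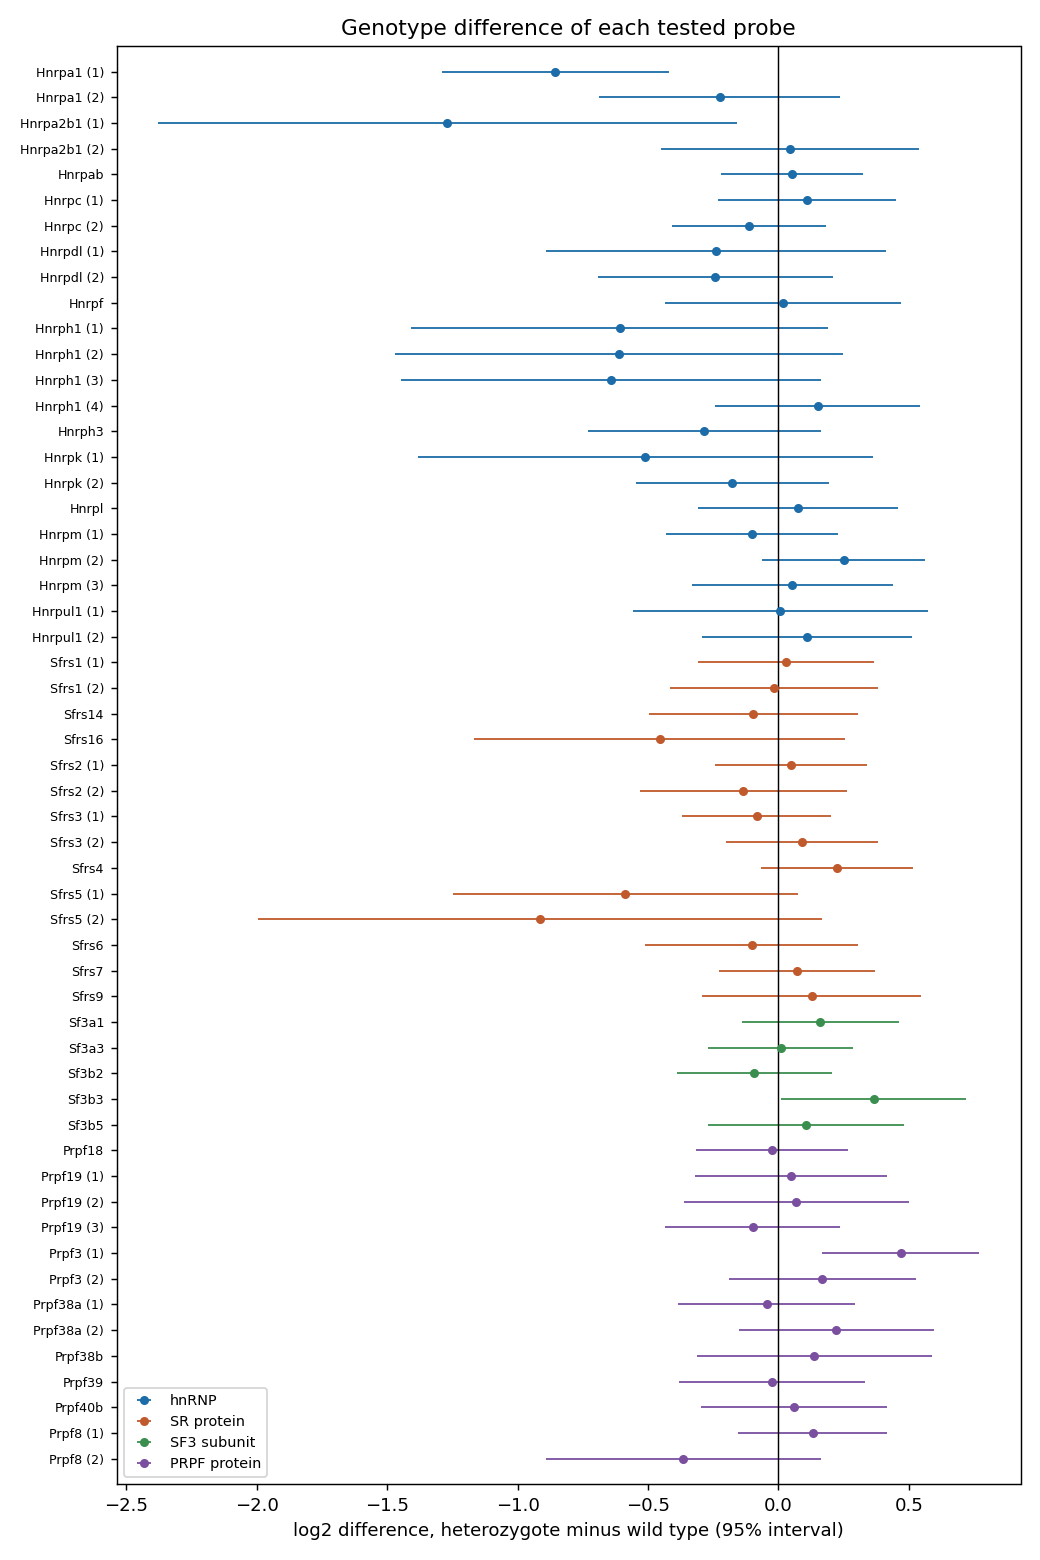
The log2 difference between heterozygotes and wild types (horizontal axis, log2 units) for each of the 55 tested probes, grouped by role, with points at the difference and lines over the 95% interval from limma. Numbers in brackets order the probes of a gene by mean signal. The intervals of Hnrpa1 (1), Hnrpa2b1 (1), Prpf3 (1) and Sf3b3 leave out 0, and no probe passed after adjustment.

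Hnrpa1 (now Hnrnpa1) encodes a protein that binds splicing silencers and favours exon skipping. Its probe ILMN_3096701 had normalized log2 intensities of 5.43, 6.06, 5.99 and 5.41 in heterozygotes 1 to 4 and of 6.60, 6.27, 6.63 and 6.83 in wild types 1 to 4. Every heterozygote was below every wild type, with a gap between heterozygote 2 and wild type 2. The difference was -0.85 (95% interval -1.29 to -0.42), a 1.81-fold lower geometric mean, with an unadjusted p of 0.0014 and an adjusted p of 0.947 (limma). Separation of this kind, with all heterozygotes lower, was found in 1.14% of all probes. In the deposited intensities, before normalization, the groups overlapped by 1 mouse: heterozygotes had 25.9, 45.5, 59.7 and 30.3, wild types 58.7, 69.8, 87.2 and 84.9. Leaving out 1 mouse moved the difference between -0.97 and -0.74, and it was -0.95 without heterozygote 3.

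The other Hnrpa1 probe, ILMN_3024068, did not separate the genotypes. It read 4.52, 4.54, 4.86 and 5.10 in heterozygotes and 5.40, 5.13, 4.83 and 4.57 in wild types, a difference of -0.23 (-0.69 to 0.24). It was detected on 5 of 8 arrays, on a scale whose lowest value was 4.10, where differences are compressed. Within each mouse the first probe exceeded the other by 0.97 ± 0.51 in heterozygotes and 1.60 ± 0.53 in wild types (SD, n = 4), and these did not differ by an exact permutation test (p = 0.143, two-sided). Probe sequences are not used here, so the transcript forms that each probe reads, and any sharing with the processed copies of this gene, were not examined.

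Prpf3 encodes a protein of the U4/U6 particle, which carries the U6 RNA into the spliceosome. Probe ILMN_2941431 read 8.48, 8.47, 8.47 and 8.66 in heterozygotes and 8.13, 8.10, 8.18 and 7.80 in wild types. All heterozygotes were above all wild types, as in 1.53% of all probes. The difference was 0.47 (95% interval 0.17 to 0.77), or 1.38-fold, with an unadjusted p of 0.0060 and an adjusted p of 0.947 (limma). The deposited intensities were separated too, at 370, 321, 362 and 465 in heterozygotes and 191, 292, 288 and 185 in wild types. With 1 mouse left out the difference ran from 0.38 to 0.51, and it was 0.49 without heterozygote 3.

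The second tested Prpf3 probe had a smaller difference of the same sign. ILMN_2740053 read 7.43, 7.36, 7.28 and 7.49 in heterozygotes and 7.07, 6.90, 7.40 and 7.51 in wild types, so that wild types 3 and 4 lay within or above the heterozygotes. Its difference was 0.17 (-0.19 to 0.53), and 0.06 without wild type 2. The within-mouse gap between the probes was 1.13 ± 0.07 in heterozygotes and 0.83 ± 0.40 in wild types (SD, n = 4; exact permutation p = 0.257, two-sided). Of the remaining 3 Prpf3 probes, ILMN_2941430 was detected on 2 heterozygote arrays and on 0 wild-type arrays, and the others on 0 arrays.

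**Figure D2:**
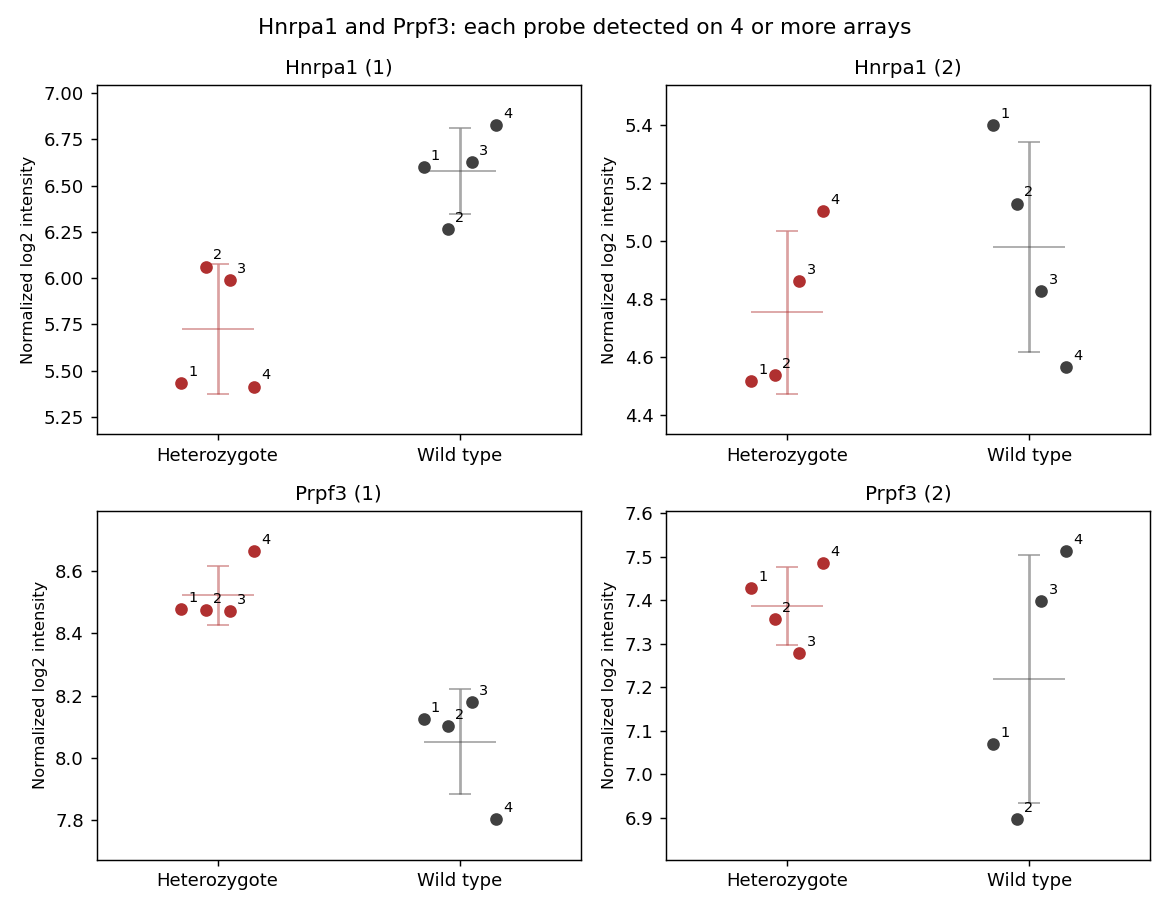
Normalized log2 intensity (vertical axes, which do not start at 0) of each tested probe of Hnrpa1 and Prpf3, with points for the mice, numbered as in the labels, and bars for the mean ± SD of 4 mice. The genotypes separate on the first probe of each gene and overlap on the second.

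Among the hnRNPs 10 of 23 tested probes were higher and 13 lower, with a median difference of -0.11. Hnrpa2b1, whose protein binds and sorts RNAs as well as regulating exons, had the largest difference of any member probe. Its probe ILMN_2615855 read 6.94, 8.90, 8.92 and 7.22 in heterozygotes and 9.98, 8.31, 9.46 and 9.31 in wild types. Heterozygotes 1 and 4 were low, while heterozygotes 2 and 3 lay above wild type 2, so the groups overlapped. The difference was -1.27 (-2.38 to -0.16), with an unadjusted p of 0.029 and an adjusted p of 0.947 (limma). It was -0.91 without heterozygote 1, -1.59 without heterozygote 3 and -1.03 without wild type 1, the highest mouse. The other Hnrpa2b1 probe, detected on all 8 arrays, differed by 0.05 (-0.45 to 0.54).

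Hnrph1, which binds runs of guanine, had 4 tested probes. On 3 of them the differences were alike, at -0.61, -0.61 and -0.64, and the intervals of all 3 included 0. The first of these read 7.30, 8.49, 9.23 and 7.76 in heterozygotes and 9.11, 8.52, 8.58 and 9.01 in wild types. Heterozygote 3 was the highest and heterozygote 1 the lowest of all 8 mice. Without heterozygote 3 the 3 differences were -0.96, -0.99 and -0.94, with adjusted p between 0.609 and 0.634 (limma), and without heterozygote 1 they were -0.31, -0.29 and -0.30. The fourth probe, detected on 4 arrays, was at 0.15.

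Hnrpk, a poly-cytosine binding protein, was at -0.51 on a probe with values of 5.46, 6.56, 7.08 and 5.88 in heterozygotes and 7.20, 5.89, 6.57 and 7.38 in wild types. The groups overlapped over most of their range. The difference was -0.80 when either heterozygote 3 or wild type 2 was left out and -0.25 when heterozygote 1 was. Its other tested probe was at -0.18.

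Other abundant hnRNPs differed little, with narrower intervals. Hnrpab, a protein that binds both RNA and DNA, read between 11.98 and 12.12 in heterozygotes and between 11.90 and 12.11 in wild types (difference 0.05, -0.22 to 0.32). Hnrpc, a core protein that covers uridine tracts, was at 0.11 (-0.23 to 0.45) on its first probe (-0.0079 without heterozygote 3) and -0.11 (-0.41 to 0.18) on the second. Hnrpm, which binds guanine- and uridine-rich sites, was at -0.10, 0.25 and 0.05 on 3 probes, and the interval of each included 0. Hnrpl, which binds CA repeats, was at 0.07 (-0.31 to 0.46). The remaining tested members, Hnrpdl, Hnrpf, Hnrph3 and Hnrpul1, lay between -0.28 and 0.11. The first Hnrpdl probe went from -0.24 to -0.54 without heterozygote 3 (unadjusted p = 0.029, adjusted p = 0.634, limma), and to -0.08 without wild type 2. Hnrph3 went from -0.28 to -0.45 without heterozygote 2 (unadjusted p = 0.036, adjusted p = 0.582, limma).

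In 5 hnRNP genes (Hnrpa3, Hnrpd, Hnrph2, Hnrpr and Hnrpu) no probe was detected on 4 or more arrays.

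SR genes had 6 of 14 tested probes higher and 8 lower, with a median of -0.05, and 0 of 14 had an unadjusted p under 0.05. Sfrs1 (now Srsf1), the founding SR protein, was at 0.03 (-0.31 to 0.37) and -0.02 (-0.41 to 0.38) on its probes. Sfrs2 (Srsf2), which acts in exon recognition, was at 0.05 and -0.14. Sfrs4 (Srsf4) was at 0.22 (-0.07 to 0.52), with 7.96, 8.13, 8.28 and 8.03 in heterozygotes and 8.0, 7.81, 7.77 and 7.91 in wild types, where only heterozygote 1 lay below a wild type.

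Sfrs5 (Srsf5) varied most among the SR genes. Its first probe read 8.61, 9.81, 9.69 and 8.50 in heterozygotes and 9.67, 9.81, 9.51 and 9.98 in wild types. Heterozygotes 1 and 4 were below every wild type, while heterozygotes 2 and 3 lay among them. The difference was -0.59 (-1.25 to 0.07) on this probe and -0.91 (-2.0 to 0.17) on the second, with adjusted p of 0.947 for both (limma). With 1 mouse left out the first ran from -0.81 (without heterozygote 2) to -0.37 (without heterozygote 4), and was -0.77 without heterozygote 3. The second ran from -1.28 (without heterozygote 2) to -0.47 (without heterozygote 1), and was -1.15 without heterozygote 3. Without heterozygote 2 both had an unadjusted p of 0.017 and an adjusted p of 0.530 (limma). In that setting 8.06% of all probes had an unadjusted p under 0.05. Sfrs6, Sfrs7 and Sfrs9 lay between -0.10 and 0.13, and Sfrs3 was at -0.08 and 0.09. For Sfrs8, Sfrs10 and Sfrs15 no probe was detected on 4 or more arrays. The members filed as Sfrs14 and Sfrs16 (now Sugp2 and Clasrp), which carry SR-like stretches without being classical SR proteins, were at -0.10 and -0.46, the latter with 5 arrays detected. The Sfrs16 difference was -0.71 without wild type 2 (unadjusted p = 0.030, adjusted p = 0.624, limma), -0.50 without heterozygote 3 and -0.19 without wild type 4. Without wild type 2, 7.35% of all probes had an unadjusted p under 0.05.

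Splicing factor 3 had 5 tested probes, 1 for each of 5 genes, with 4 higher and 1 lower in heterozygotes and a median of 0.10. Sf3b3, a scaffold subunit of the branch point complex, read 7.61, 7.91, 7.94 and 7.72 in heterozygotes and 7.78, 7.33, 7.42 and 7.20 in wild types. Wild type 1 lay among the heterozygotes, and the other wild types lay below them. The difference was 0.36 (0.0089 to 0.72), with an unadjusted p of 0.045 and an adjusted p of 0.947 (limma), and it was 0.29 without wild type 4 and 0.32 without heterozygote 3. The other subunits were closer to 0, with Sf3a1 at 0.16 (-0.14 to 0.46), Sf3b5 at 0.10, Sf3a3 at 0.0083 and Sf3b2 at -0.09. For Sf3a2, Sf3b1 and Sf3b4 every probe was detected on 0 arrays.

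The PRPF proteins had 8 of 13 tested probes higher and 5 lower, with a median of 0.06. Prpf8, the large protein at the catalytic centre, was at 0.13 (-0.15 to 0.42) on a probe with 8.05, 7.99, 8.01 and 8.04 in heterozygotes and 7.75, 8.06, 7.99 and 7.77 in wild types. Its other probe was at -0.36 (-0.89 to 0.16), with the lowest value, 5.52, in heterozygote 1. It was -0.59 without wild type 2 (unadjusted p = 0.010, adjusted p = 0.621, limma), -0.44 without heterozygote 3 and -0.23 without heterozygote 1. Prpf19, a ubiquitin ligase of the activated spliceosome, was at 0.05, 0.07 and -0.10 on 3 probes. On each of these heterozygote 3 was the lowest mouse, and without it the first was at 0.19, the second at 0.26 and the last within rounding of 0. Prpf38a, of the complex that precedes activation, was at -0.05 and 0.22. Prpf18, which acts in exon joining, was at -0.03, and Prpf38b, Prpf39 and Prpf40b lay between -0.03 and 0.14. Neither Prpf31 nor Prpf4b had a probe detected on any array.

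Several member probes varied widely among the 8 mice. The SD over all 8 mice, which includes the genotype difference, was above 0.5 on 9 of 55 member probes (16.4%), against 8.08% of all probes. These 9 belong to Hnrpa2b1, Sfrs5 (2 probes), Hnrph1 (3 probes), Hnrpk, Sfrs16 and Hnrpa1. They span between 2.66-fold (Hnrpa1) and 8.26-fold (Hnrpa2b1) from the lowest mouse to the highest. Their SD within heterozygotes ran from 0.35 (Hnrpa1) to 1.11 (Sfrs5), and within wild types from 0.20 (Sfrs5) to 0.70 (Hnrpa2b1). On Hnrpa1 the SDs within the genotypes, 0.35 and 0.23, were smaller than the genotype difference of -0.85. On 8 of the 9, all but Sfrs16, the lowest values were those of heterozygotes 1 and 4, although on Hnrpk heterozygote 4 (5.88) barely differed from wild type 2 (5.89). The same pair of mice was lowest on 14.9% of all 852 probes with that spread and on 5.89% of all probes tested. The pattern was noticed in these values, so it is a description and carries no test, and the probes of 1 gene are not independent. The SF3 and PRPF genes had 0 such variable probes. Summed marker intensities of heterozygotes 1 and 4 lay within the range of the other 6 mice for all 11 marker lists. That range includes heterozygote 3, which had the highest adipocyte, macrophage, fibroblast and proliferation sums. On these lists heterozygote 4 came next, at 10998, 1648, 9901 and 54.5. The arrays of heterozygotes 1 and 4 correlated with the others at 0.971 and 0.977. The part of tissue content in the pattern was not tested.

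**Figure D3:**
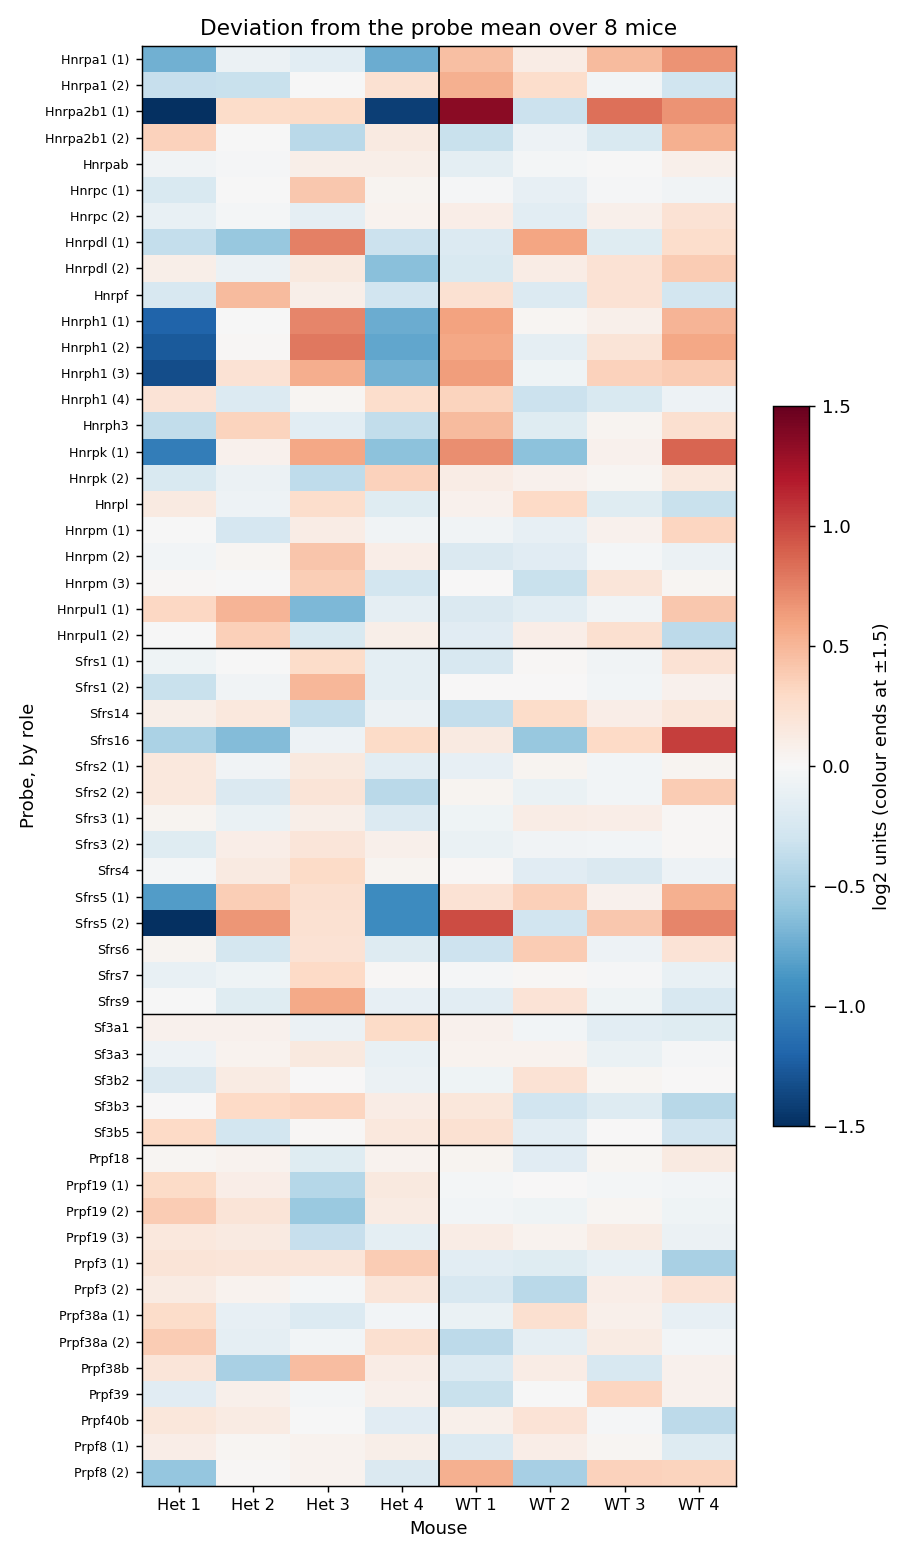
Deviation of each mouse (columns) from the mean over 8 mice for each of the 55 tested probes (rows, by role), in log2 units, with the colour ending at ±1.5. Heterozygotes 1 and 4 are low together on probes of Hnrpa1, Hnrpa2b1, Hnrph1, Hnrpk and Sfrs5, and 0 of the SF3 and PRPF rows have an SD above 0.5.

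**Figure D4:**
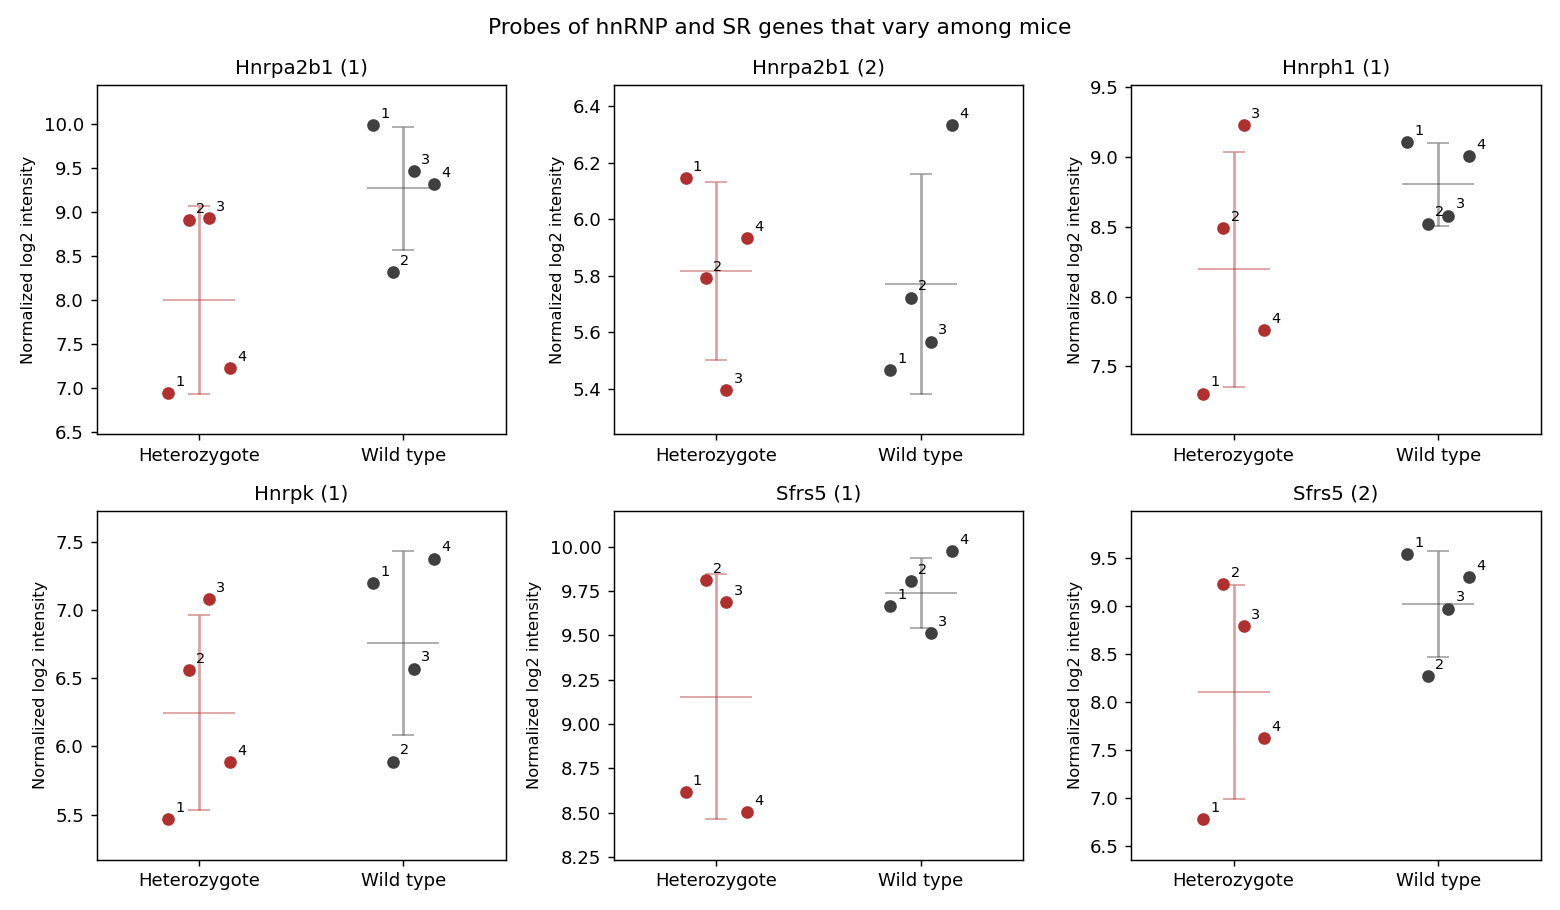
Normalized log2 intensity (vertical axes, which do not start at 0) for 6 probes of Hnrpa2b1, Hnrph1, Hnrpk and Sfrs5, with points for the mice, numbered as in the labels, and bars for the mean ± SD of 4 mice. Heterozygotes 1 and 4 are the lowest mice on each panel but that of the second Hnrpa2b1 probe.

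Probes of the same gene did not always give the same sign. Of 16 genes with at least 2 tested probes, 6 (Hnrpa1, Hnrpdl, Hnrpk, Hnrpul1, Prpf3 and Sfrs5) gave a single sign and 10 gave both. The share over all genes with several probes was not computed, so the count is not read as particular to these genes. Differences of the 10 went from small (0.03 and -0.02 in Sfrs1) to wide (-1.27 and 0.05 in Hnrpa2b1). The contrast was widest in Hnrpa2b1, where the within-mouse gap between the probes was 2.18 ± 1.34 in heterozygotes and 3.49 ± 0.88 in wild types (SD, n = 4; exact permutation p = 0.20, two-sided). Only the first pair of Hnrpm probes reached the smallest p that 4 against 4 mice can give, 0.0286 (exact permutation, two-sided). Their gap was 1.03 ± 0.15 in heterozygotes and 1.38 ± 0.16 in wild types, a difference of -0.35. After Benjamini-Hochberg adjustment over the exact tests of 20 pairs its p was 0.50, and 0 pairs passed. A single pair at the smallest possible p cannot pass this adjustment. The 3 concordant Hnrph1 probes differed in this gap by 0.0014 and 0.03, so they gave the same genotype difference within 0.03 log2 units.

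**Figure D5:**
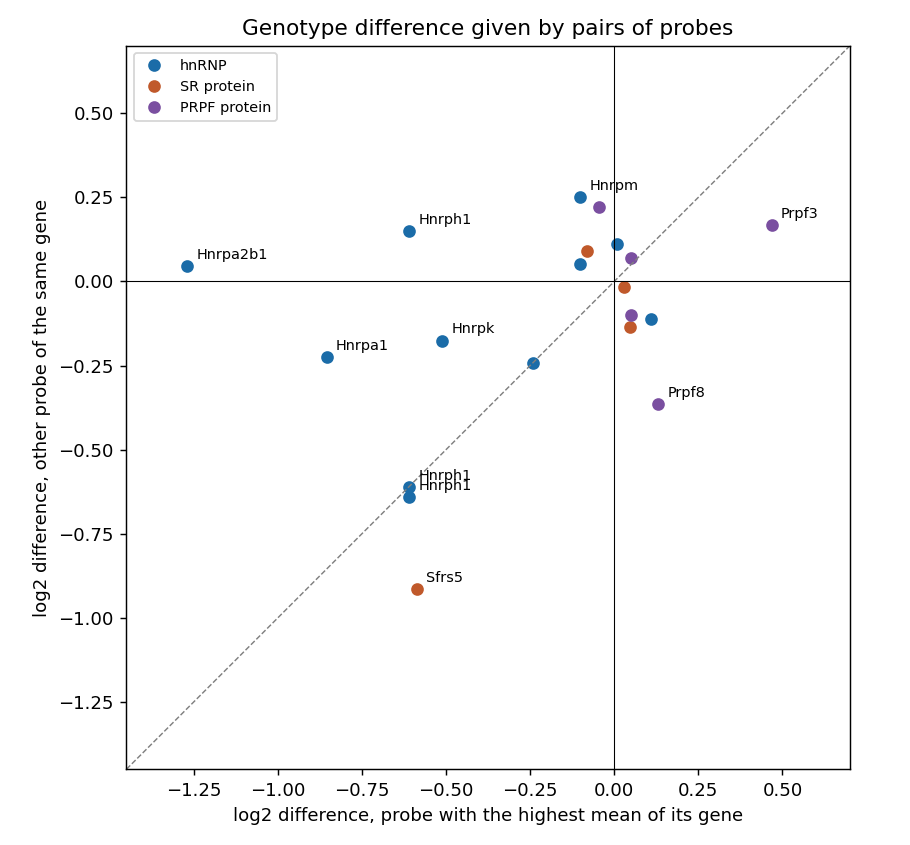
The genotype difference (log2, heterozygote minus wild type) of the probe with the highest mean of its gene (horizontal axis) against that of another tested probe of the gene (vertical axis), for 20 pairs coloured by role, with the dashed line marking equal values. Both differences have the same sign in 9 of the 20 pairs. The pairs of opposite sign include those of Hnrpa2b1 and Prpf8 and 1 of Hnrph1, while the concordant Hnrph1 pairs lie on the line.

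Detection differed little between the genotypes. Of the 87 probes, 46 were detected on all 8 arrays, 9 on 4 to 7, 8 on 1 to 3 and 24 on 0. Detections summed to 217 in heterozygotes and 206 in wild types, of 348 possible in each. A probe was detected on more heterozygote arrays in 10 cases, on more wild-type arrays in 5 and equally often in 72, and no gap exceeded 2 arrays. Over all probes, 10094 to 11545 were detected per heterozygote array, with the highest count in heterozygote 3, and 10191 to 10809 per wild-type array. The same counts of gaps over all probes were not made. The 32 untested probes had deposited intensities of at most 24.6.

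Among 109 further splicing genes listed, 100 were found by symbol and 80 were tested. Their 121 tested probes had 55 higher and 66 lower (median -0.02), and 0 passed. Of these probes 1 was higher and 6 were lower at an unadjusted p under 0.05, together 5.79%, beside 2.04% higher and 2.64% lower among all probes (4.67% together). The genotypes did not overlap on 2 of the 121, both with heterozygotes lower (1.65%), where 1.14% of all probes were of that kind. Among U1, U2AF, Sm and Lsm proteins, Lsm3 was at -0.41 and Lsm7 at -0.32, both of the ring that binds the U6 RNA. Lsm2 of the same ring was at 0.25 and -0.05 on its probes. The rest of the ring was closer to 0, with Lsm4 at -0.10, Lsm5 at 0.01, Lsm6 at 0.20 and -0.0033, and Lsm8 at -0.09. On Lsm7 all heterozygotes (8.98, 9.16, 9.11 and 9.12) lay below all wild types (9.35, 9.28, 9.63 and 9.39).

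In the catalytic and remodelling group Eftud2, the GTPase that binds Prpf8, was at 0.38 (0.04 to 0.71) on 1 probe and at 0.02 and 0.21 on its others. Slu7, which helps choose the splice acceptor, was at -0.41 and 0.12 on its probes, and the helicase Dhx8 was at -0.21. The exon junction complex had 7 of 8 probes (5 genes) higher, where 50.1% of all probes were, and 0 had an unadjusted p under 0.05. Its lower probe was of Magoh, at -0.25, whose other probe was at 0.09, while Acin1 was at 0.20 and Eif4a3 at 0.11.

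Of the regulators, Rbm10 was at -0.46, with all heterozygotes (4.23, 4.45, 4.72 and 4.70) below all wild types (4.76, 4.94, 5.16 and 5.08), but it was detected on 4 arrays. Khdrbs1, a signal-dependent splicing regulator, was at -0.45 and -0.37 on its probes. Kinases that phosphorylate SR proteins had 2 of 10 probes (7 genes) higher and 8 lower, where 50.1% of all probes were higher. Of the 10 probes 0 had an unadjusted p under 0.05. Clk1 was at -0.38, Clk4 at -0.54 and Srpk1 at 0.26, each with an interval that included 0. The other Clk4 probes were at -0.15 and -0.06. The Clk4 probe at -0.54 read 5.24, 6.30, 6.55 and 5.51 in heterozygotes and 6.80, 5.83, 6.61 and 6.54 in wild types, with the lowest values in heterozygotes 1 and 4. That pair of mice was lowest on 14 of the 121 further probes (11.6%), and on 2 of the 3 with an SD above 0.5. Every gene named from these further lists had an adjusted p of at least 0.947 (limma).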

How the data were processed

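Ventricular RNA of 4 heterozygotes and 4 wild types was hybridised to bead arrays, per the labels. The deposited non-normalized table holds an average signal and a detection p-value per probe and array, per the file headers. On each array 23.0% to 27.2% of the signals were below 0, and they were treated as background-subtracted linear intensities. A second deposited table holds intensity values the authors had normalized by a method not given in the sources used here. These values were used as an alternative.

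Background was modelled with normexp (limma's nec, offset 16), followed by quantile normalization and log2, which pulls differences of dim probes towards 0. A detection p under 0.01 on 4 or more of the 8 arrays was required, and the 10547 probes left were tested together with lmFit and eBayes, two-sided, with Benjamini-Hochberg adjustment at 0.05. Mice are biological replicates per the labels. Pairs of probes were tested by exact permutation over 70 arrangements. Deviations of same-numbered mice from their group means correlated at -0.42 to 0.211, and the reported fit did not pair mice by number. Whether same-numbered mice shared a litter or handling was not tested. The fit was checked on simulated data with independent errors of equal size on every array, so that check does not cover an array that stands apart. The fits used limma 3.58.1 in R 4.3.3, and the figures matplotlib 3.10.9 in Python 3.11.15. Chip and scan batch were not analysed here, and the identity of the knock-in allele and 1 further splicing gene are not reported here.

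The member genes, gene lists and tests were chosen with earlier results of these data known. Named are Hnrpa1 and Prpf3, probes that separate the genotypes, for each role the 3 probes of highest mean and the 3 of smallest p, genes whose probes disagree in sign, and 3 probes per further list. The other Lsm genes of the U6 ring are given beside Lsm2, Lsm3 and Lsm7. Probes that show the spread between mice were named after their values were seen. Of 48 symbols, 47 matched RefSeq names of GRCm38.p6, and Sfrs10 kept the name in the file. Alternatives covered normalization, background, the authors' values, detection filter, array weights, 1 probe per gene, a block for the mouse number, eBayes options and each mouse left out. Leaving out heterozygote 3 with wild type 2 was added after seeing the data.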

Additional observations from a re-analysis of the deposited data

Results flagged for a closer look

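For each named probe and genotype, the highest and lowest mouse were compared with the other 3 by Dixon's criterion for a value far from its group. Among 74 groups this marked 1, where chance would mark about 3.7 (1 in 20). On Prpf3 probe ILMN_2941431 heterozygote 4 read 8.66, and the other heterozygotes lay between 8.47 and 8.48. Without heterozygote 4 the Prpf3 difference was 0.42, against 0.47 with it.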

How the results depend on the processing

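No member probe reached an adjusted p under 0.05 in limma under any of the 19 alternatives, where their smallest was 0.135, for Hnrpa1 with array weights. Over all probes, 1 passed (adjusted p 0.0402) without heterozygote 3 and wild type 2 together, where the smallest of a member was 0.303, and 0 passed in each of the others. The count of member probes at an unadjusted p under 0.05, 4 in the reported fit, was 8 with no detection filter (87 probes), 13 with array weights, which counted heterozygote 3 at 0.272 and heterozygote 4 at 3.23, and 10 without heterozygote 3 and wild type 2 together. With 1 mouse left out it ran from 2 to 8. The shares of all probes were 4.60%, 14.7%, 10.1% and, over the single mice left out, 2.83% to 8.06%. The cause of these shifts was not tested. With the mouse number as a replicate block 3 member probes (5.45%) had an unadjusted p under 0.05, beside 2.99% of all probes, and 0 passed. Hnrpa1 and Prpf3 were among the 3, Sfrs16 was added, and Hnrpa2b1 and Sf3b3 were not. The median member difference was 0.13 with median scaling, where the median of all probes was 0.14, and ran from -0.04 to 0.01 with 1 mouse left out. Of 37 named probes, 21 kept their sign in every setting, Hnrpa1 and Prpf3 among them, and 16 changed it at least once, with reported differences between -0.14 and 0.11. The 4 arrays per genotype limit precision, with a median SE of 0.17 for member probes.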
